A study of Mus musculus with 16 samples.

Results

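The chromatin of 9 genes that encode transcription factors found across the endocrine cells of the pancreas was examined in islet ATAC-seq peak lists. The genes were Neurog3, Neurod1, Insm1, Pax6, Isl1, Rfx6, Rfx3, Myt1 and St18, 9 of 20807 protein-coding genes annotated on chromosomes 1 to 19. ATAC-seq uses a transposase that cuts open chromatin, so accessible DNA collects reads and forms peaks. Islets came from the founder strains of the Diversity Outbred mouse population, with 1 female and 1 male sample for each of 8 strains and 16 samples in all. By their labels the strains were 129S1_SvImJ (129), A_J (AJ), C57BL/6J (B6), NOD_ShiLtJ (NOD), NZO_HlLtJ (NZO), CAST_EiJ (CAST), PWK_PhJ (PWK) and WSB_EiJ (WSB). All mice were untreated inbred animals as far as the labels say, and ages were not given. Each sample was prepared from 50 islets. The text of the study calls CAST, PWK and WSB wild-derived, and the remaining 5 are here called classical. Reads of all strains had been aligned to the B6 genome (mm10), and lists from alignments to other strain genomes were not analysed here.

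Overlapping or touching peaks of the 16 samples were merged into 347712 regions. The 163 regions that overlapped the body of a member gene, or the 3 kb upstream of it, make up the set described here. A region counted as called in a sample when that sample had a peak there at the false discovery rate of 0.05 used by the authors. Of the 163 regions, 30 (18.4%) were called in all 16 samples, against 15.2% of the regions of all protein-coding genes and 11.8% of all regions. A single sample called 59 of the 163 regions (36.2%), against 40.1% of the regions of protein-coding genes. The level of a region is the signal at its highest summit divided by that sample's median over the 40940 regions called in every sample, and it is given below as a fold of that median. A level of 1 is therefore the typical level of a shared region. The labels do not say how many animals stand behind a sample, so the spread between the 2 samples of a strain may hold sex, animal and technical differences together.

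Endocrine cells of the pancreas arise from progenitors that switch on NEUROG3 for a short time while Notch signalling is low. It is followed by a group of factors, among them NEUROD1, INSM1, PAX6 and ISL1, several of which stay on in mature alpha, beta and delta cells and hold hormone genes active. Open chromatin at a gene's start and introns marks promoters and candidate enhancers, and mature islets are a mixture of these endocrine cells with some exocrine, endothelial and stromal cells.

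Several regions described below are shown first by their sequence, because they are the elements whose accessibility separated strains or stood beside the gene starts. Letters are those of the B6 reference (GRCm38, the same build as mm10) on the strand of the gene, 200 bases each. For promoters they end at the base before the main transcript start, and for other regions they are centred on the highest summit (for Neurod1, on the median position of its downstream summit). Capitals mark every match, on either strand, to 10 short motifs, which were the E-box (CANNTG), its NeuroD form (CAGATG, counted under both), the RFX half-site (GTTGCC), a homeodomain core (TAATTA), a FOX site (TGTTTAC), an HNF1 half-site (GTTAAT), the AP-1 site (TGANTCA), a CRE half-site (TGACG), the CCAAT box (CCAAT) and the GC box (GGGCGG).
Isl1 promoter, chr13:116309690-116309889, minus strand: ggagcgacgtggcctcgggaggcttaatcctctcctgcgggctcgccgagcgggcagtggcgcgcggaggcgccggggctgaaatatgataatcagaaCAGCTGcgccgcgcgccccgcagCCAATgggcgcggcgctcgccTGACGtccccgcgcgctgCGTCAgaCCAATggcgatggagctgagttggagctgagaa
Rfx6 promoter, chr10:51677556-51677755, plus strand: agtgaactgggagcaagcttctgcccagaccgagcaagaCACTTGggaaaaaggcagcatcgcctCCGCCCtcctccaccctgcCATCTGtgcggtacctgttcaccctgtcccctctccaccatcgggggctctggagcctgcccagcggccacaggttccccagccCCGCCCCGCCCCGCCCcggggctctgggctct
Neurod1 downstream element, chr2:79447929-79448128, minus strand: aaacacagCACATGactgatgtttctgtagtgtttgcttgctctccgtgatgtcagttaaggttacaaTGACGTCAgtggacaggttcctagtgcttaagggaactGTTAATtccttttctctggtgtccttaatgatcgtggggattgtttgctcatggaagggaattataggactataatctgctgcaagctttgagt
Rfx6 intron region lowest in CAST, chr10:51722503-51722702, plus strand: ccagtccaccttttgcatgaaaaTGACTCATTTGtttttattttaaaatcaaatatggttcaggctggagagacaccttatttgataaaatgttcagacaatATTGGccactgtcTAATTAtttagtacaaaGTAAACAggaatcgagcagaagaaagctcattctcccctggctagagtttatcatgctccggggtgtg
Rfx3 intron region highest in CAST and WSB, chr19:27904767-27904966, minus strand: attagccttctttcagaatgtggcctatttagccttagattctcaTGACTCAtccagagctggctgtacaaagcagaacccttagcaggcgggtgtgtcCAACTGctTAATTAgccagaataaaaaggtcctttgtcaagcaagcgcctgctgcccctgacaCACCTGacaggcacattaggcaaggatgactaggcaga
St18 intron region highest in WSB, chr1:6638115-6638314, plus strand: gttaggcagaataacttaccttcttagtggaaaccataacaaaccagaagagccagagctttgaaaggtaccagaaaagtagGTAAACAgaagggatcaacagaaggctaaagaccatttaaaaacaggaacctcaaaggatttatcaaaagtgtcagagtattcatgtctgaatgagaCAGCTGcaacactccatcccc
St18 intron region not called in PWK, chr1:6710828-6711027, plus strand: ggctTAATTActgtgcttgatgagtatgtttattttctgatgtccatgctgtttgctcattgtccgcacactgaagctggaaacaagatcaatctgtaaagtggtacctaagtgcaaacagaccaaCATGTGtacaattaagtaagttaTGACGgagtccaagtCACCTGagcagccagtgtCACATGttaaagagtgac
St18 intron region called in wild-derived samples alone, chr1:6655310-6655509, plus strand: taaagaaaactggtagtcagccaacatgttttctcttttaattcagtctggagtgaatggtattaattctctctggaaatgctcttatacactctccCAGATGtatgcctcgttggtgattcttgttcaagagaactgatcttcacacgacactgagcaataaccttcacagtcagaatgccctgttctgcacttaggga

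The motifs were common letters in such windows, and a match is a description and not a bound site. Among windows of 200 bases at the highest summits of the 40940 shared regions, 69.0% held an E-box, 19.1% its NeuroD form, 11.2% an RFX half-site, 5.81% the homeodomain core, 6.29% a FOX site and 9.0% an HNF1 half-site. The AP-1 site was in 13.4% of these windows, the CRE half-site in 15.7%, the CCAAT box in 26.2% and the GC box in 19.7%. Of the 30 shared member windows, 19 held an E-box, 6 the NeuroD form, 2 an RFX half-site, 5 the homeodomain core, 6 a FOX site, 3 an HNF1 half-site, 5 the AP-1 site, 5 a CRE half-site, 6 the CCAAT box and 3 the GC box. The Neurod1 downstream element held 2 CRE half-sites that overlap as a palindrome, from positions 69 and 72 of the printed run, and an HNF1 half-site from position 107. In the Rfx6 intron region an AP-1 site from position 24 ran into an E-box from position 29, followed by the homeodomain core from position 116 and a FOX site from position 133. The Rfx3 intron region also held an AP-1 site and the homeodomain core, from positions 46 and 108. A FOX site and an E-box were the matches in the St18 region highest in WSB, from positions 83 and 180. The St18 region called in wild-derived samples alone held the NeuroD E-box close to its summit, from position 98.

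The regions at the gene starts differed widely in level, and that of Pax6 was the highest. Pax6 (chr2:105668900-105697364) encodes a paired homeodomain factor needed for hormone gene expression, and it had a single open region, chr2:105665200-105696631, of 31.4 kb that covered most of the gene. Its unbroken width rests on CAST female, in which 1 peak spanned nearly all of it, and without that sample Pax6 held 3 regions. The highest summit of that region was in all 16 samples about 6.65 kb after the main start, where the positions in the samples spread over 93 bases. Of 4 annotated Pax6 transcripts with the longest coding sequence, the main one was taken as the longest in span, and the others start between 6.53 and 7.23 kb further on, near this summit. At the main start itself 4 samples had a summit, from 1.45 to 2.19. The level of the region, at the summit 6.65 kb after the main start, was 9.59 in 129 female and 8.94 in 129 male. With the female first, it was 10.1 and 9.60 in AJ, 8.92 and 7.43 in B6, and 10.4 and 8.96 in NOD. It was 7.64 and 5.49 in NZO, 7.56 and 8.24 in CAST, 8.03 and 6.69 in PWK, and 7.21 and 7.19 in WSB. The mean of 8.25 was above that of 94.2% of the 9206 shared regions at starts of protein-coding genes, and 99.8% of those regions were narrower. A strain effect was not called there (limma F test, adjusted p = 0.215), and the highest strain mean, in AJ, was 1.5-fold the lowest, in NZO. Inside the same region a second summit 18.8 kb after the start reached 1.00 to 2.33 in 15 samples. CAST female had no separate summit there.

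Isl1 (chr13:116298281-116309689) encodes a LIM-homeodomain factor of endocrine cells and neurons. The region at its start, chr13:116308308-116312589, ranged from 3.39 in WSB male to 5.94 in PWK male with a median of 4.15, and in all 16 samples the summit fell within 27 bases of the same place, 60 bases upstream of the start. Both WSB samples (3.39 and 3.39) were below the other 14, but the strain effect was not called (adjusted p = 0.161). A second Isl1 region, chr13:116298860-116307054, covered much of the gene toward its end and was lower, from 0.273 in NZO male to 0.917 in B6 female.

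Neurod1 (chr2:79452521-79456751) encodes the basic helix-loop-helix factor that NEUROG3 activates and that drives the insulin gene. Its start region, chr2:79447107-79457753, held several summits, reached past the end of the gene and also lies in the windows of Cerkl and Gm26755. Its level ran from 2.29 in NZO male to 4.74 in 129 male (median 3.20). The 129 samples, at 4.40 and 4.74, were above the other 14, and the strain effect over the region was not called (adjusted p = 0.211). The highest summit was at the promoter in 12 samples but at the downstream element, about 8.72 kb past the start, in both CAST and both WSB samples. This element, which was singled out after the values were seen, stood at 4.13 in CAST female and 4.06 in CAST male, and at 2.61 and 2.98 in WSB. Elsewhere it was 1.47 and 1.57 in 129, 3.06 and 1.87 in AJ, 2.39 and 2.69 in B6, 1.79 and 1.54 in NOD, 2.43 and 0.836 in NZO, and 2.48 and 1.94 in PWK. The promoter summit itself was 3.26 in CAST male and 2.38 in both WSB samples. In CAST female 1 peak covered both places, and no promoter summit was listed separately. No test was made on the separate summits. The region upstream of Neurod1, chr2:79458717-79460832, was called in all samples at a lower level, from 0.291 in AJ male to 1.07 in NOD female.

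**Figure D1:**
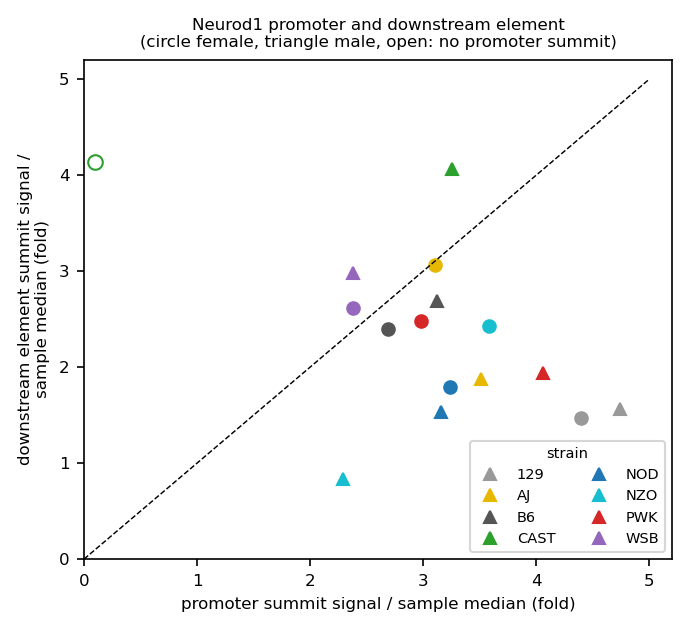
Summit signal at the Neurod1 promoter (horizontal axis) and at the element 8.72 kb past the start (vertical axis), each as a fold of the sample's median over shared regions, 1 point per sample. The dashed line marks equal levels. CAST male and both WSB samples lie above it, and CAST female, which had no separate promoter summit, is drawn open at the left edge at 4.13.

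Rfx6 (chr10:51677756-51730432) and Rfx3 (chr19:27761721-28011166) encode winged-helix factors of the RFX family. RFX6 is needed for islet formation and for insulin secretion by beta cells, while RFX3 is best known for the genes of cilia and also acts in endocrine differentiation. The Rfx6 start, chr10:51675610-51678910, had a median level of 3.41, and the Rfx3 start, chr19:28009881-28012535, had a median of 1.73 (range 0.988 to 2.84). Insm1 (chr2:146221921-146225020), which encodes a zinc-finger factor of endocrine and neuroendocrine cells, had a modest start region, chr2:146220735-146223862, at a median of 1.01, higher than 20.4% of the shared start regions. Its 2 highest samples were 129 female at 2.00 and PWK male at 1.97, and the other sample of each strain was at 1.09 and 1.00. Neither Insm1 (adjusted p = 0.186) nor the Rfx3 start (adjusted p = 0.472) had a called strain effect.

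Myt1 (chr2:181763332-181827797) and St18 (chr1:6487231-6860940) encode zinc-finger factors of the myelin transcription factor family. No region called in all samples lay at their main starts, which for St18 is 1 of 6 starts of transcripts with the same coding length. Near the start of the main Myt1 transcript a region at chr2:181762738-181762999 was called in 6 samples. The nearest to the main start of St18, chr1:6487800-6487999, was called in PWK male alone at 0.156. Both genes had a region at an internal annotated start in all 16 samples. For Myt1 this was chr2:181766661-181768054, about 3.78 kb after the main start, at a median of 0.702. For St18 it was chr1:6728663-6737799, about 242 kb after the main start and in a region that holds 4 of those 6 starts, at a median of 4.09 and a range from 2.02 in NZO male to 5.99 in WSB male. Both WSB samples, at 5.86 and 5.99, were above the other 14, without a called strain effect (adjusted p = 0.178).

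Neurog3 (chr10:62133090-62134763), the gene that starts endocrine differentiation, had no shared region. Its only call was a region of 325 bases in the coding exon, chr10:62133223-62133547, in 129 female at 0.310, and this region lies in the window of Fam241b as well. The other 15 samples called no peak in the gene or in the 3 kb upstream, which says that no signal passed the authors' threshold there and not that it was absent. Of 11 genes of Notch signalling, which acts on Neurog3 in progenitors, 9 had a start region in all 16 samples, Notch1 in 3 samples and Hes5 in none. None of the 9 had a called strain effect in limma, against 35.7% of all shared regions.

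**Figure D2:**
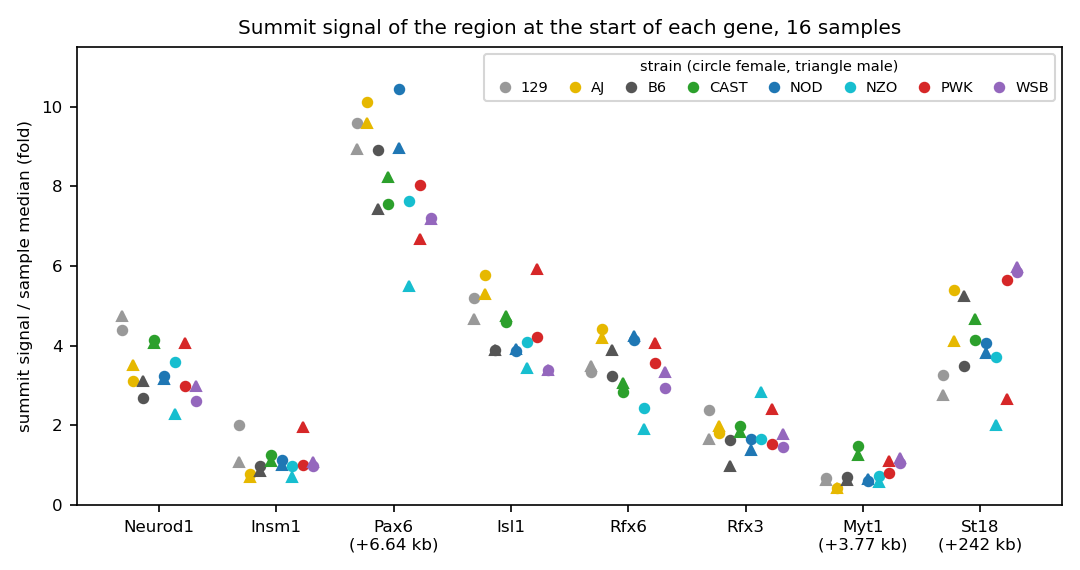
Level at the highest summit of the region at the start of 8 member genes, as a fold of the sample's median over shared regions, with 1 point per sample, coloured by strain. For Pax6, Myt1 and St18 the distance of the summit from the main start is given, and the Neurod1 points of CAST and WSB are the downstream element. Pax6 lies highest (5.49 to 10.4) and Myt1 lowest (0.418 to 1.49).

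The longer genes held most of the regions. St18 spans 374 kb and held 97 regions, 88 of them in introns without exon overlap, and 13 were called in all 16 samples. Among 20807 protein-coding genes, 197 had at least 13 shared regions. Rfx6, which spans 52.7 kb, held 22 regions with 6 shared, and Rfx3, which spans 249 kb, held 24 with 4 shared. Myt1 held 12 with 1 shared, Neurod1 and Isl1 2 each with both shared, Insm1 2 with 1 shared, Pax6 its single wide region and Neurog3 its single call. Without St18 the share of member regions called in all samples was 25.8% (17 of 66). In the strain lists, where the authors kept peaks whose ranks repeated between the female and the male (irreproducible discovery rate up to 0.05), 17 of the 163 regions were present in all 8 strains (10.4%), against 8.91% of the regions of protein-coding genes.

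**Figure D3:**
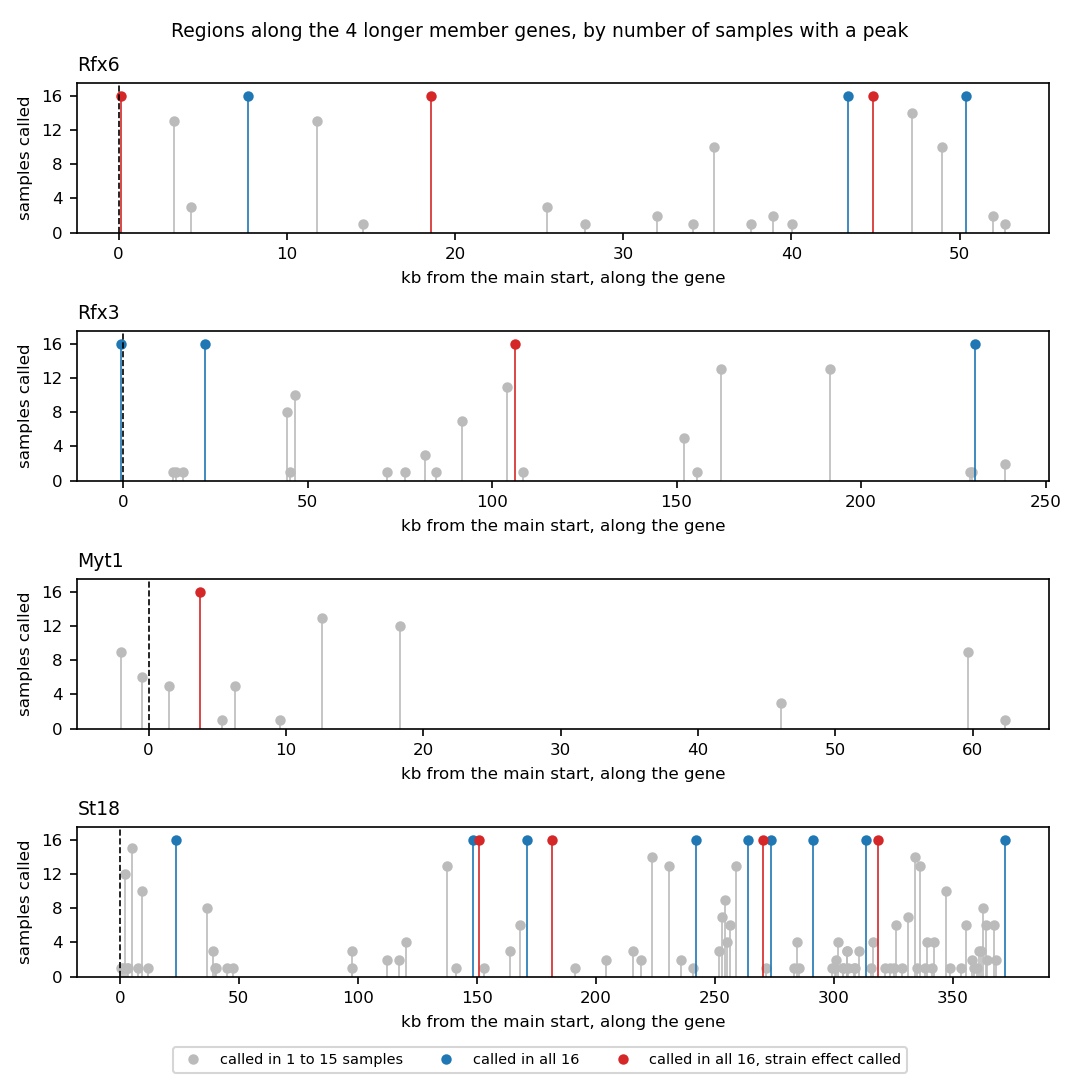
Regions along Rfx6, Rfx3, Myt1 and St18 by distance of their highest summit from the main transcript start (horizontal axis, kb) and by the number of samples with a peak (vertical axis). Grey marks regions called in 1 to 15 samples, blue those in all 16 and red those with a called strain effect. St18 has 13 regions at 16 samples, the nearest 23.7 kb after its main start.

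The samples differed in how much was called, which bears on every count of calls. Lists held 77887 peaks (AJ male) to 167051 (WSB female), and median summits ran from 10 in PWK male to 40 in NOD female. The 2 samples of a strain correlated over shared regions with r from 0.848 in NZO to 0.973 in CAST, and NZO male was the sample least like the others (mean r = 0.771). Marker genes were read at the start of any annotated basic transcript, since the main transcript of Ins2 starts far upstream of the usual insulin promoter. Of 10 endocrine marker genes 8 had a start called in every sample, Ins2 (0.382 to 1.75) among them, and no peak in the lists used here overlapped the starts of Sst and Ppy. The summed endocrine level ran from 8.76 in NZO male to 19.8 in NOD female. Of 8 acinar markers 1 (Bhlha15) was called in all samples and 7 in none, of 4 duct markers 1 in all and 3 in some, and of 4 endothelial markers 1 in some and 3 in none. Of the leukocyte markers, Ptprc was called in 3 samples and Cd3e, which marks T cells, in none. Of 4 mesenchyme markers 2 were called in all samples and 2 in none, and of 3 neuron and glia markers on these chromosomes 1 was called in all and 1 in some. NZO male had the highest summed level for duct markers (2.80, over a median of 0.890) and the highest level of Ptprc (0.491 over a median of 0). Its acinar level was also the highest (1.16 over 0.730), and this is the level of Bhlha15 alone. The summed level of 19 other islet transcription factor genes, read in the same way, was likewise highest in NZO male (26.9 over a median of 17.8). NZO male was also the lowest sample in 8 of the 30 shared member regions (26.7%), against 15.4% of all shared regions, and the part of other cells in its values was not tested. In such mixed tissue, fewer cells of a type and less accessible chromatin per cell cannot be told apart.

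The strain comparison asks whether a region's level differed among the 8 strains beyond the spread within them. It was called in 9 of the 30 shared member regions (30.0%) by limma's F test with sex in the model and Benjamini-Hochberg adjustment over all 40940 shared regions, against 35.7% of all shared regions. The members' share was thus close to the background. Of the 9 regions 3 were in Rfx6, 1 in Rfx3, 1 in Myt1 and 4 in St18, and none was at Neurod1, Insm1, Pax6 or Isl1. The highest strain mean exceeded the lowest by a median of 2.00-fold over the 30 regions and by 2.18-fold over all shared regions. Both samples of 1 strain were above the other 14 in 8 of the 30 regions, against 20.9% of all shared regions, and below them in 8, against 25.6%.

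**Figure D4:**
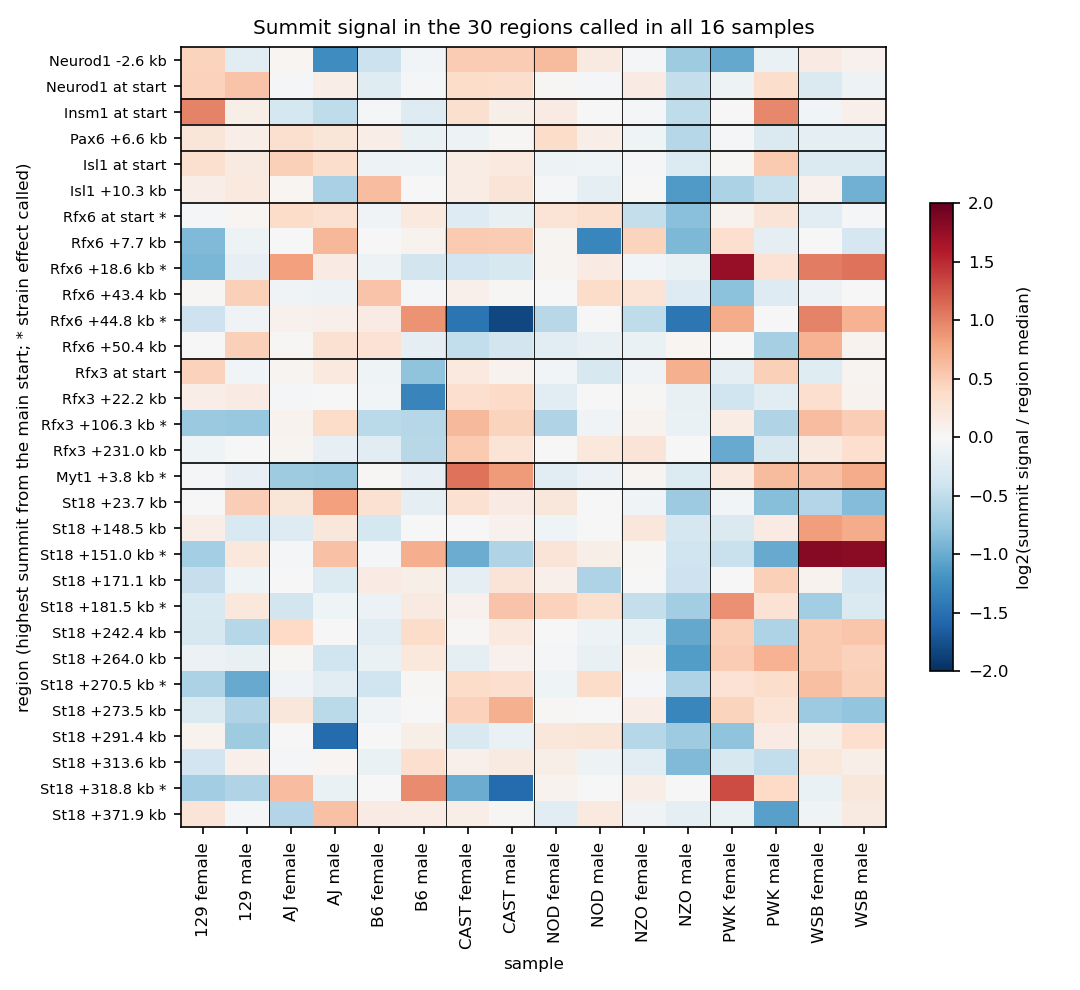
Levels in the 30 regions called in all 16 samples (rows, by gene and by distance of the highest summit from the main start) in each sample (columns), as log2 of the level over the region's median. Red is above the median, blue below, and an asterisk marks the 9 regions with a called strain effect. Both WSB samples are deep red in the St18 row 151 kb after the start.

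The clearest strain difference was in an intron of St18. The region chr1:6637864-6640223, about 151 kb after the main start, was at 3.77 in WSB female and 3.74 in WSB male. In the classical strains, female first, it was 0.672 and 1.25 in 129, 1.05 and 1.62 in AJ, 1.06 and 1.77 in B6, 1.28 and 1.16 in NOD, and 1.09 and 0.818 in NZO. CAST stood at 0.538 and 0.706 and PWK at 0.790 and 0.531. Both WSB samples were above every other sample, of which B6 male was the nearest, while CAST and PWK were at the low end.
The strain means ran from 0.622 ± 0.119 (SD, n = 2) in CAST to 3.76 ± 0.0247 in WSB, a 6.04-fold range (adjusted p = 0.00204). Against the mean of the other 7 strains, WSB was higher by 1.96 on the log2 scale (SE 0.26, adjusted p = 0.000786), CAST lower (log2 -1.0, SE 0.26, adjusted p = 0.0148) and PWK lower (log2 -0.90, SE 0.26, adjusted p = 0.0395). Among fits that left out 1 sample, the WSB call was lost in 1, that without WSB female (adjusted p = 0.0595), the CAST call without either CAST sample, and the PWK call in 8 of 16. In 13 samples the highest summit lay within 500 bases of the same place, and in both CAST samples and PWK male it lay elsewhere in the region. Without the WSB samples the strain effect was no longer called (adjusted p = 0.0944). Nearby, the region chr1:6635148-6635983, 149 kb after the start, was also highest in WSB, at 1.43 and 1.35 against 0.631 to 0.945 in the other 14. It was called in the WSB comparison (log2 0.84, SE 0.22, adjusted p = 0.0379, lost in 7 of 16 fits that left out 1 sample) but not for a strain effect overall (adjusted p = 0.151).

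Other St18 regions separated other strains. At chr1:6804581-6806879, about 319 kb after the start, PWK female stood at 1.58, PWK male at 0.844 and B6 male at 1.23, while CAST was at 0.321 and 0.221 and 129 at 0.397 and 0.420. Both CAST samples were below the other 14 (adjusted p = 0.0133), and the 1-strain comparison gave -1.40 for CAST (SE 0.28, adjusted p = 0.0032) and 0.99 for PWK (SE 0.28, adjusted p = 0.0364). In 7 samples the highest summit there lay over 500 bases from that of PWK female, so separate summits were compared. The strain call was lost without CAST male (adjusted p = 0.0806), as was the CAST call (adjusted p = 0.123), and the PWK call was lost in 6 of 16 such fits.
At chr1:6756774-6758277, 271 kb after the start, WSB was highest at 1.95 and 1.77 and 129 lowest at 0.828 and 0.638 (adjusted p = 0.0237). The summit lay within 63 bases in all samples, and 129 was lower (log2 -0.91, SE 0.21, adjusted p = 0.0358, lost in 8 of 16 fits). Here too the strain call depended on single samples, with adjusted p = 0.0767 without 129 male, 0.0625 and 0.0621 without CAST female and male, and 0.0699 and 0.0633 without WSB female and male.
The region chr1:6668118-6669513, 181 kb after the start, was highest in PWK female at 1.48 and lowest in NZO male and WSB female, both at 0.491 (adjusted p = 0.0397). No single strain was called there. The exon region chr1:6759240-6770534 was highest in CAST, at 1.25 and 1.47, and was called for CAST alone (log2 0.80, SE 0.26, adjusted p = 0.042, lost in 12 of 16 fits).

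Rfx6 showed strain differences at its start and in 2 introns. The intron region chr10:51722400-51722960, 44.8 kb after the start, was at 0.217 and 0.169 in CAST, 0.420 and 0.218 in NZO, 0.448 and 0.565 in 129, 0.631 and 0.636 in AJ, 0.667 and 1.11 in B6, 0.407 and 0.598 in NOD, 1.00 and 0.594 in PWK, and 1.18 and 0.966 in WSB, female first. CAST was below the other 14 samples, with NZO male next to it, and WSB had the highest mean, 5.56-fold over CAST (adjusted p = 0.00315). The summit lay within 89 bases in all 16 samples. Against the other 7 strains, CAST was lower (log2 -1.65, SE 0.27, adjusted p = 0.000887) and WSB higher by 1.12 (SE 0.27, adjusted p = 0.0302) on the log2 scale. Without the CAST samples the strain effect was not called (adjusted p = 0.0533). The CAST call was kept in all 16 fits that left out 1 sample, and the WSB call was lost in 4 of them, those without either WSB sample included.
At the Rfx6 start itself NZO was lowest, with 2.44 in the female and 1.91 in the male, and AJ highest, with 4.42 and 4.2. NOD followed AJ at 4.14 and 4.24. Both NZO samples were below the other 14, and NZO was called lower than the other strains (log2 -0.73, SE 0.17, adjusted p = 0.0327). This call was lost without NZO male and in 6 other fits that left out 1 sample. NZO male had the lowest endocrine marker sum and the highest duct marker sum and Bhlha15 level. It also had the highest sum of other islet transcription factor genes. Over all strains the effect was close to the threshold (adjusted p = 0.0477) and was lost in 14 of the 16 fits that left out 1 sample.
The intron region chr10:51695200-51696599, 18.6 kb after the start, was highest in PWK female (1.19) and in WSB (0.726 and 0.761), and PWK male was at 0.438. A strain effect was called (adjusted p = 0.0237) and PWK was higher (log2 0.94, SE 0.28, adjusted p = 0.0487), a call lost in 11 of 16 fits that left out 1 sample. In 4 samples, PWK male among them, the highest summit lay over 500 bases from that of PWK female. The strain call was lost without CAST female (adjusted p = 0.0613), CAST male (0.0529), WSB female (0.0564) or WSB male (0.0728). The remaining 3 shared Rfx6 regions had no called effect.

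In Rfx3 the intron region chr19:27904223-27905415, 106 kb after the start, was at 3.07 and 2.66 in CAST and at 3.01 and 2.76 in WSB. Female first, it was 1.17 and 1.16 in 129, 2.05 and 2.51 in AJ, 1.35 and 1.31 in B6, 1.29 and 1.87 in NOD, 2.05 and 1.78 in NZO, and 2.18 and 1.28 in PWK. The 4 samples of CAST and WSB were above all others, and 129 was below all others. Strains differed (2.47-fold from 129 to WSB, adjusted p = 0.016), and CAST was higher by 0.71 (SE 0.21, adjusted p = 0.0319, lost in 4 of 16 fits). The strain effect was not called without CAST female (adjusted p = 0.0578) or WSB female (adjusted p = 0.0509). This intron region was the strongest of Rfx3, above its start, with a mean level of 1.97 against 1.81. A region near the end of the gene, chr19:27780000-27780434, was called lower in PWK (log2 -0.68, SE 0.20, adjusted p = 0.0481), and this was lost in 12 of 16 fits that left out 1 sample.

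At Myt1 the strain effect was called in each fit that left out a sample or a strain. At its internal start, chr2:181766661-181768054, CAST stood at 1.49 and 1.26, WSB at 1.06 and 1.17 and PWK at 0.806 and 1.09, female first. The classical strains were lower, with 0.690 and 0.623 in 129, 0.714 and 0.627 in B6, 0.605 and 0.646 in NOD, 0.728 and 0.582 in NZO, and 0.431 and 0.418 in AJ. All 6 wild-derived samples were thus above all 10 classical ones, a pattern of 0.457% of shared regions, and of the 30 member regions Myt1 alone had it. The opposite pattern was in none of the 30 and in 0.576% of shared regions. Strains differed (3.25-fold from AJ to CAST, adjusted p = 0.00335), with adjusted p from 0.00123 to 0.0374 over those fits. CAST was higher by 0.97 (SE 0.18, adjusted p = 0.00229) and AJ lower (log2 -0.93, SE 0.18, adjusted p = 0.0143). The AJ call was lost without either AJ sample (adjusted p = 0.142 and 0.200) and the CAST call without CAST female (adjusted p = 0.101).

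**Figure D5:**
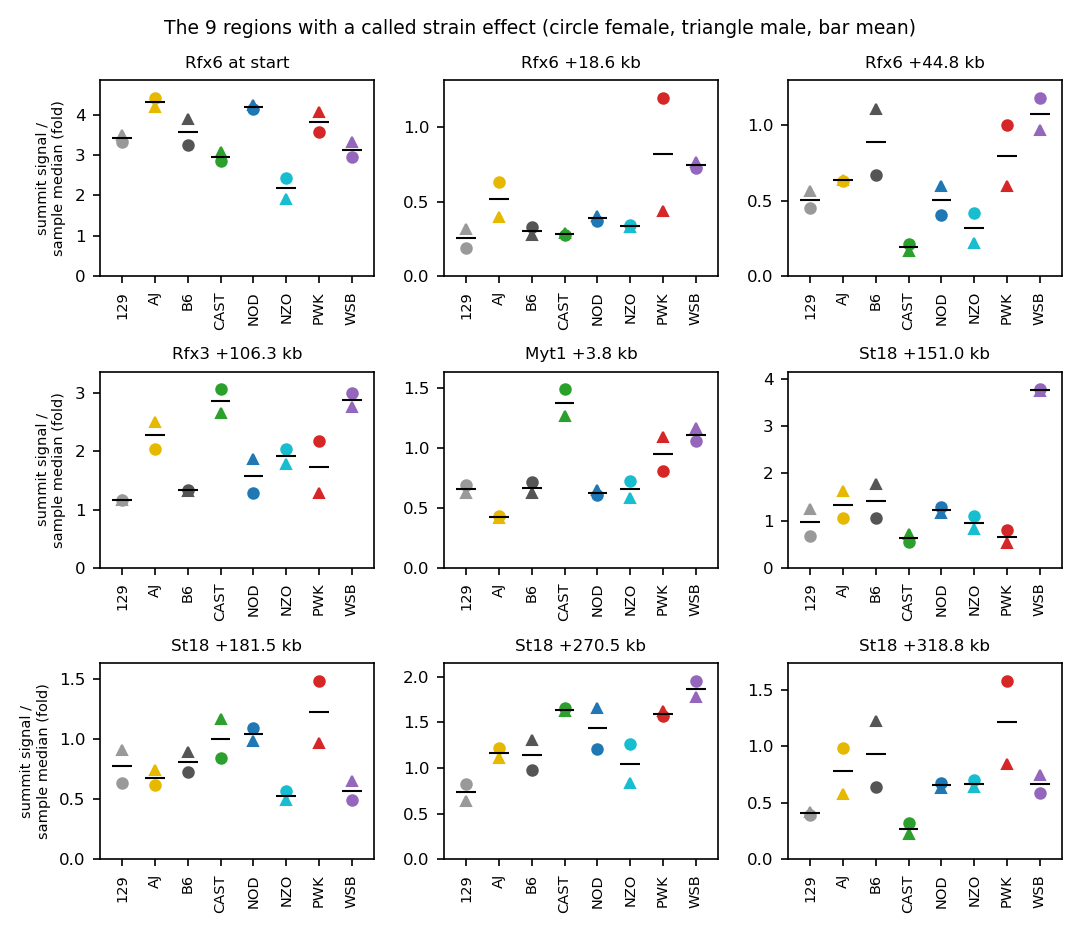
Levels in the 9 member regions with a called strain effect, 1 panel a region, named by gene and by distance of the summit from the main start. Each strain (horizontal axis) has a female (circle), a male (triangle) and their mean (bar), as a fold of the sample's median over shared regions (vertical axis, from 0). WSB stands alone in the St18 panel at 151 kb, and CAST is lowest in the Rfx6 panel at 44.8 kb and the St18 panel at 319 kb.

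Strain by strain, calls in the 30 member regions were few and are read against the share of all shared regions called in the same direction. For CAST 3 regions were higher (background 6.82%) and 3 lower (13.8%), and for WSB 3 were higher (2.67%) and none lower (3.14%). PWK had 2 higher (5.32%) and 2 lower (5.75%). For 129 none was higher (1.01%) and 1 lower (2.08%), for AJ none was higher (3.67%) and 1 lower (3.14%), and for NZO none was higher (2.32%) and 1 lower (2.87%). Neither B6 (1.46% higher and 1.68% lower) nor NOD (1.66% and 1.36%) had a call in limma. The 8 comparisons share samples and are not independent.

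Wild-derived against classical strains, tested with the 8 strain means as units, gave no call by limma among the 30 regions in either direction, against 0.00733% of shared regions higher and 0.0269% lower. At an unadjusted p under 0.05 there were 3 of the 30 regions, against 12.1% of all shared regions in either direction. All 3 were higher in the wild-derived strains. These were the Myt1 internal start (1.15 ± 0.228 in 6 wild-derived and 0.606 ± 0.107 in 10 classical samples, SD, log2 0.90, SE 0.23, adjusted p = 0.183) and the St18 regions chr1:6756774-6758277 (log2 0.66, SE 0.24, adjusted p = 0.305) and chr1:6749572-6755599 (log2 0.52, SE 0.23, adjusted p = 0.391). In the last of these the highest summit of 15 samples lay over 500 bases from that of PWK male, so different summits were compared. The median difference over the 30 regions was 0.12 on the log2 scale, against -0.05 over all shared regions.

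Sex gave no call by limma in the 30 regions and in 0.0% of shared regions. At an unadjusted p under 0.05 stood 1 of the 30 regions, against 3.96% of all shared regions. It was the second Isl1 region, chr13:116298860-116307054 (log2 0.39 higher in females, SE 0.17, adjusted p = 0.999). Its mean levels were 0.630 in females and 0.490 in males, and in 5 of 8 strains the higher sample was female. In both samples of AJ, NZO and PWK its highest summit lay over 500 bases from that of B6 female, so different summits were compared. Differences between females and males ran from -0.19 to 0.39 on the log2 scale. With 1 sample of each sex per strain, a sex difference that varies by strain cannot be told apart from the spread between samples.

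Regions that were present in some strains and not called in others were read from the calls alone, with no test. In St18, chr1:6710687-6711071 in an intron 224 kb after the start was called in 14 samples, at 1.04 and 0.852 in WSB and at 0.418 to 0.677 in the other 12, and in neither PWK sample. The lowest 5 in 100 of called summits in PWK female and male were at or under 0.113 and 0.125, so peaks well below these levels were called elsewhere in PWK. Why neither PWK sample had a call in this St18 region was not tested. The same kind of pattern was found for chr10:51724400-51725799 in Rfx6, an exon region that neither AJ sample called, at 0.136 to 0.494 elsewhere. There the lowest 5 in 100 of called summits were at or under 0.139 in AJ female and 0.200 in AJ male, and 9 of the 14 levels were above the higher of these. Together these were 2 of the 163 regions, against 0.735% of all regions.

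In the other direction, 6 of the 163 regions were called in both samples of 1 to 3 strains and nowhere else, against 5.89% of all regions. The strongest of a single strain was chr1:6604293-6604636 in an intron of St18, at 0.632 and 0.670 in WSB, and it was in the WSB strain list. Rfx3 had a region of CAST alone, chr19:27772143-27772232, at 0.142 and 0.191. Called in all 6 wild-derived samples and in none of the 10 classical ones were chr2:181762738-181762999, just upstream of the main Myt1 start, and chr1:6655095-6655599 in an intron of St18. The Myt1 region was at 0.292 and 0.221 in CAST, 0.419 and 0.344 in PWK, and 0.236 and 0.386 in WSB. The St18 region was highest in PWK, at 0.565 and 0.406, and was 0.0755 and 0.257 in CAST and 0.170 and 0.182 in WSB. In the strain lists the Myt1 region was present for CAST alone and the St18 region for PWK alone. Of all regions 0.137% had this pattern.

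More loosely, 74 of the 163 regions (45.4%) were called in at least 1 wild-derived sample and in no classical one, against 36.2% of all regions. Only 9 (5.52%) had the opposite pattern, against 22.0%. The wild-derived samples also had longer lists, with 121407 to 167051 peaks against 77887 to 141307 in the classical samples. With an equal number of peaks taken from every sample, 11 of 75 member regions (14.7%) were called in wild-derived samples alone, against 14.97% of all regions.

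The members' paralogs and partners give the setting. By the same reading of starts, 8 of 18 paralogs had a start region in all 16 samples, 1 in some and 9 in none. The strain effect was called at 1 of the 8, Neurod4 (adjusted p = 0.0485), against 35.7% of all shared regions. Neurog2 had a start region called in all samples with a median of 2.56, while Neurog3 had its single call in 129 female. The family members Rfx1, Rfx2 and Rfx5 had starts at medians of 5.93, 7.10 and 5.28, above Rfx6 and Rfx3. Of 19 other islet transcription factor genes on these chromosomes, 10 had a start region in all samples, 5 in some and 4 in none. A strain effect was called at 3 of the 10, against 35.7% of all shared regions, Mafa (adjusted p = 0.0398), Foxa2 (adjusted p = 0.0114) and Mlxipl (adjusted p = 0.0159), which act in beta cell maturity, in endoderm and in the glucose response.

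Regions at main starts that were called in all 16 samples were compared across the samples, for Neurod1, Insm1, Pax6, Isl1, Rfx6 and Rfx3. Myt1, St18 and Neurog3 had none and were left out. The compared regions did not move as 1 group. Each was read at the highest summit of its region, so the Pax6 value is that of the summit 6.65 kb after the main start, and the Neurod1 value is that of the downstream element in the CAST and WSB samples. The closest pair was Pax6 and Rfx6 (Pearson r = 0.675 of centred log2 levels), followed by Neurod1 and Isl1 (r = 0.668) and by Insm1 with Neurod1 (r = 0.611). Rfx3 was the least like the rest, with r = -0.401 to Rfx6 and -0.259 to Pax6. The most similar start of any other gene was Rdh10 for Rfx6 (r = 0.955), Plcxd3 for Pax6 (r = 0.915), Cacna1b for Neurod1 (r = 0.904), Etv3 for Rfx3 (r = 0.902), Bace2 for Insm1 (r = 0.896) and Hs1bp3 for Isl1 (r = 0.884), each the highest of 10239 starts. The points share libraries and their scaling, and the values are descriptions only.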

How the data were processed

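Peak lists of 16 islet ATAC-seq samples and 8 strain lists were used. Per the methods and processing notes of the study, the authors trimmed reads (cutadapt 2.0), aligned them to mm10 (Bowtie2 2.3.4.1), removed duplicates (Picard 2.9.2) and mitochondrial reads, and used MOSAiCS (false discovery rate 0.05) on each sample alone. Whether cut sites were shifted for the enzyme is not given in the sources used here. The deposited summit signal is a whole number that was not scaled to depth, and read totals of single samples were not used here, so the depth behind a value is unknown and no counting interval is given. The deposited mean signal, a score whose averaging the files do not explain, and the deposited −log10 p-value of each peak served in alternatives. For each strain list the authors gave a −log10 irreproducible discovery rate.

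Peaks of chromosomes 1 to 19 were merged and assigned with GENCODE gene bodies and 3 kb upstream. The main start is that of the basic transcript with the longest coding sequence. Ties went to the transcript with the longest span, so marker genes and gene lists were read at any basic start, an alternative added after seeing the data. In limma 3.58.1 (R 4.3.3), log2(summit signal + 1) was centred on each sample's median over 40940 shared regions, and strain and sex were fitted in 1 model. P-values were adjusted by Benjamini-Hochberg over all shared regions and called under 0.05. The strain class was tested on strain means. The p-values measure only the spread between these samples. Fits were tested on simulated data first. Named regions were, for each gene, those at the start, up to 3 with the smallest strain p, the highest, up to 2 called in 1 to 3 strains alone and up to 2 missing in 1 strain, and regions with a call of 1 strain or an unadjusted class or sex difference were added after their values were seen. St18 chr1:6668118-6669513, the Neurod1 downstream element and the other summits within wide regions were likewise singled out. The members and lists were chosen with earlier results of these data known. Alternatives covered scaling, pseudocount, filters, peak thresholds, merging, windows, GC content, the model and leaving out samples or strains. Sequences were read from GRCm38.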

Additional observations from a re-analysis of the deposited data

Results flagged for a closer look

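In the 15 named regions called in all samples, the levels of the 8 females and of the 8 males were searched for a highest or lowest value set apart from the rest (Dixon's gap test at the 95% level). This held for 5 of 30 groups. Chance sets apart about 1 in 20 groups, but several of these regions were named for a small strain p, and both sexes share strains, so that rate is no yardstick here. At St18 chr1:6637864-6640223 it was WSB in both sexes, with 3.774 in the female, next to 1.279, and 3.739 in the male, next to 1.771. At the Insm1 start it was 129 female with 2.0, next to 1.255, and PWK male with 1.969, next to 1.096, and the other sex of each strain was not set apart. At Rfx6 chr10:51695200-51696599 it was WSB male with 0.7614, next to 0.4375.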

How the results depend on the processing

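A strain effect was called in 9 of 30 member regions. The count was 15 with centring within GC bins, 21 with no centring, and 2 to 14 when a sample or strain was left out, lowest without CAST (2) or WSB (3) and highest without NZO female (14). Among named regions it ran from 2 to 9 when samples were left out, and was 3 with regions called in at least 12 samples and 5 with the stricter peak threshold. Calls of 1 strain were less steady, and their shares over all shared regions in these settings are not given here. For CAST they numbered 2 to 7 when samples or strains were left out, 3 with at least 12 samples, 11 with GC bins, 11 with the mean of the summits and 20 with no centring. For PWK they numbered 0 to 7, 1 with at least 12 samples, 2 without the lowest 0.25 of regions, 2 with the mean of the summits, 16 with no centring and 1 with the stricter threshold. For WSB they numbered 0 to 7, 7 with GC bins, and 5 with log2(signal + 8) and with quantile normalization. For NZO they numbered 0 to 7, 2 with at least 12 samples, 2 with the deposited mean signal, and 0 with the mean of the summits and with no centring. For 129 they numbered 0 to 3, 3 with at least 12 samples, 2 without the lowest 0.25 of regions, and 0 with the mean signal and with no centring. For AJ they numbered 0 to 2, 4 with at least 12 samples, and 2 with the mean signal and with no centring. For B6 they numbered 0 to 1 and 1 with the mean signal, and for NOD 1 with the mean signal. The cause of these moves was not tested. Sex and class gave 0 calls in every alternative in which they were fitted. The member regions numbered 163, 153 to 168 when a sample was left out, 66 with the stricter threshold and 75 with an equal number of peaks. The share called in all samples was 18.4%, then 30.3% and 32.0% under these thresholds, and 17.9% to 20.4% when a sample was left out. It fell to 0.613% when peaks had to cover at least 0.5 of a region in each sample, since merged regions are wider than single peaks. The share called in wild-derived samples alone moved from 45.4% to 14.7% with an equal number of peaks, an alternative chosen after seeing the data. Pax6 had a called strain effect with the deposited mean signal (adjusted p = 0.000742) and with the mean of the summits (0.048), and the St18 internal start with the same measures (0.00852 and 0.00467) and with no centring (0.0397). The Neurod1 start was called with GC bins (0.0362), the mean of the summits (0.0237), no centring (0.0398) and without NZO female (0.0329), and the Insm1 start with no centring (0.0188) and without PWK female (0.033). Reading starts at the main transcript alone left 7 endocrine markers called in all samples in place of 8, since Ins2 was missed, 1 mesenchyme marker in place of 2 and 9 other islet factors in place of 10. Females and males were compared within strains, since strain and sex were both terms of the model. The labels give no other pairing of samples.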
